A study of Mus musculus with 6 samples.

Results

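The genes described here are the Wnt ligands, their receptors and co-receptors, the secreted Wnt antagonists, the R-spondin genes and their receptors, and the cytoplasmic and nuclear parts of the same signalling route, measured by RNA sequencing in mouse kidneys collected whole on embryonic day 16. They were picked by a rule on gene symbols, set with earlier results of these data known, and the rule gives 56 mouse symbols. Of these, 44 had a row in the expression table of 13965 rows and 43 passed the filter on low values. Levels are given in CPM, the reads of a gene scaled to a common library total. Wnt6, at 0.745, 0.819 and 0.514 CPM in mutant kidneys and 1.07, 1.11 and 0.829 CPM in control kidneys, fell below that filter. Wnt1, Wnt2, Wnt3, Wnt3a, Wnt7a, Wnt8a, Wnt10a, Wnt10b, Fzd9, Sfrp5, Dkk4 and Rspo2 had no row in the expression table.

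The mutant group held 3 kidney samples that carried Six2-TGC and were miR-17~92 flx/flx, and the control group held 3 samples labelled WT, miR-17~92 flx/+. Six2-TGC is a transgene in which Six2 regulatory sequence drives Cre recombinase in nephron progenitors, the cells that form the nephrons, so that both floxed copies of the miR-17~92 microRNA cluster are deleted in those cells and their descendants. Other kidney cells of the mutants keep the floxed cluster, and the control label names no transgene, so the transgene and the loss of the cluster cannot be told apart. Each of 3 litters gave 1 mutant and 1 control sample. Whether a sample is 1 embryo or a pool, and the sex of the embryos, are not given in the sources used here.

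Libraries held between 46672915 and 54913325 reads in mutant kidneys and between 43804667 and 49473404 reads in control kidneys, so that 1 CPM stood for 43.8 to 54.9 reads. The row of Mir17hg, the host transcript of the deleted cluster, stood at 53.6, 39.8 and 44.6 CPM in mutant kidneys, against 34.1, 36.4 and 23 CPM in control kidneys. It was higher in every library labelled mutant (log2 fold change 0.57, SE 0.13; adjusted p = 0.0292 by limma with litter as a block, 0.222 with genotype alone). That row joins the host transcript with the microRNA genes inside it, so reads from within the deleted segment and from outside it cannot be separated, and it does not check the deletion. The nephron progenitor gene Cited1 averaged 10.9 ± 1.87 CPM in mutant kidneys and 47.5 ± 8.73 CPM in control kidneys (SD, n = 3 each; adjusted p = 1.89e-05, limma).

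Wnt proteins are secreted lipid-modified signals that bind a frizzled receptor together with the co-receptor LRP5 or LRP6. Binding stops the destruction complex of APC, AXIN and GSK3 from degrading β-catenin, which then enters the nucleus and acts with TCF/LEF factors on target genes; other Wnt signals act without β-catenin on cell polarity and movement. R-spondins raise the number of receptors at the surface by way of LGR receptors and the ligases ZNRF3 and RNF43, while DKK, SFRP and WIF proteins block ligands or co-receptors. In the mouse kidney, Wnt9b from the ureteric duct starts nephron formation and maintains progenitors, Wnt4 drives the progenitors' change into epithelium, and Wnt11 is made at the ureteric tips.

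The microRNAs of the deleted cluster are shown because their seeds, bases 2 to 8, are the letters searched for in the 3′ UTRs of the Wnt genes. They lie on the + strand of chromosome 14, with miR-17-5p starting at base 115043684 and miR-92a-3p ending at base 115044496 of GRCm38.p6, and their RefSeq sequences fall into 4 seed families. Capitals mark the seed.
mmu-miR-17-5p: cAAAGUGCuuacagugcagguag
mmu-miR-20a-5p: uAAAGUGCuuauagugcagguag
mmu-miR-18a-5p: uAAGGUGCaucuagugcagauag
mmu-miR-19a-3p: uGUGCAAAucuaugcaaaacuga
mmu-miR-19b-3p: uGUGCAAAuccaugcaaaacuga
mmu-miR-92a-3p: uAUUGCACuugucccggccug

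Seed matches in the longest annotated 3′ UTR were counted by taking the 7 letters opposite the seed. The search covered the 42 tested members with a single identifier in their row and a UTR of at least 50 bases. Fzd10, whose row joins 2 identifiers, was left out. Matches in called ligands and DKK genes are printed with the match in capitals, on the transcript strand and in DNA letters of GRCm38. Genes not called also held matches and are not printed, among them Sfrp4 with 4 and Wnt9a with 3. Wnt9b, on chromosome 11, held 2 matches to the miR-17/20a seed in a 3′ UTR of 3386 bases, and Dkk2, on chromosome 3, held 2 to the miR-92a seed.
Wnt9b, bases 482 to 488 of the 3′ UTR: gagcaagggaaGCACTTTaggcttgggtg
Wnt9b, bases 2443 to 2449 of the 3′ UTR: ggatttgtaaaGCACTTTccatcttcaga
Wnt2b, miR-18a match: cccttgcatgcGCACCTTcctctaccctc
Wnt5a, miR-92a match: ccctgtgtgatGTGCAATtaatagaaggc
Wnt7b, miR-18a match: actccttatcaGCACCTTgggaggggctt
Wnt7b, miR-19 match: ctcgccattatTTTGCACatccttctttg
Dkk3, miR-92a match: cactggtagatGTGCAATagaaatggcta
Dkk2, first miR-92a match: ccattaatcatGTGCAATacaagcacagg
Dkk2, second miR-92a match: aggtaagctggGTGCAATgcagcctgccc

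A match to at least 1 of the 4 seed families was present in 15 of the 42 members (35.7%). The same was found in 4293 of 12569 tested rows with a single identifier and such a UTR (34.2%). The 7 members with a miR-17/20a match were 16.7% of the members, against 14.7% of all rows. The shares for miR-18a were 9.52% of the members and 9.56% of all rows, those for miR-19 were 14.3% of the members and 13.4% of all rows, and those for miR-92a were 7.14% of the members and 7.77% of all rows. Of the 15 members with a match, 6 were called higher and 1 lower, and of the 27 without one, 11 were called higher and 2 lower. Of all tested rows, 7.93% were called higher and 3.51% lower. The median log2 fold change, mutant over control on the log2(CPM + 0.5) scale, was 0.18 for the 15 members with a match and 0.18 for the 27 without one. Over all rows it was 0.07 with a match and −0.01 without one, and the rows with a match had longer 3′ UTRs, with a median of 2241.0 bases, against 847.0 bases in those without. After removal of the trend with transcript length and GC content, the medians over all rows were 0.01 with a match and −0.02 without. Those of the members were then 0.10 with a match and 0.12 without. A match is a description of the sequence and was not tested as a bound site.

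Mutant kidneys had higher levels of 5 Wnt ligands, 5 frizzled receptors, both LRP co-receptors, the R-spondin receptor Lgr4, the ligase Rnf43, the antagonists Sfrp1 and Dkk3, the target gene Axin2 and the factor Lef1, and lower levels of the antagonists Dkk1 and Dkk2 and of the agonist Rspo1. With litter as a block, limma called 21 of the 43 tested members (48.8%) at an adjusted p below 0.05, against 11.4% of all 13766 tested rows. Of these, 18 were higher (41.9%, against 7.93% of all rows) and 3 were lower (6.98%, against 3.51%). The changes were small, with log2 fold changes between −0.51 and 0.64 over the 43 members and a median of 0.18, beside 0.01 over all rows. Members higher in all 3 litters numbered 26 of the 43 (60.5%, against 28.3% of all rows), and members lower in all 3 litters numbered 10 (23.3%, against 22.2%). Without regard to litter, all mutant libraries lay above all control libraries for 13 members (30.2%, against 10.2% of all rows) and below them for 5 (11.6%, against 7.12%).

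**Figure D1:**
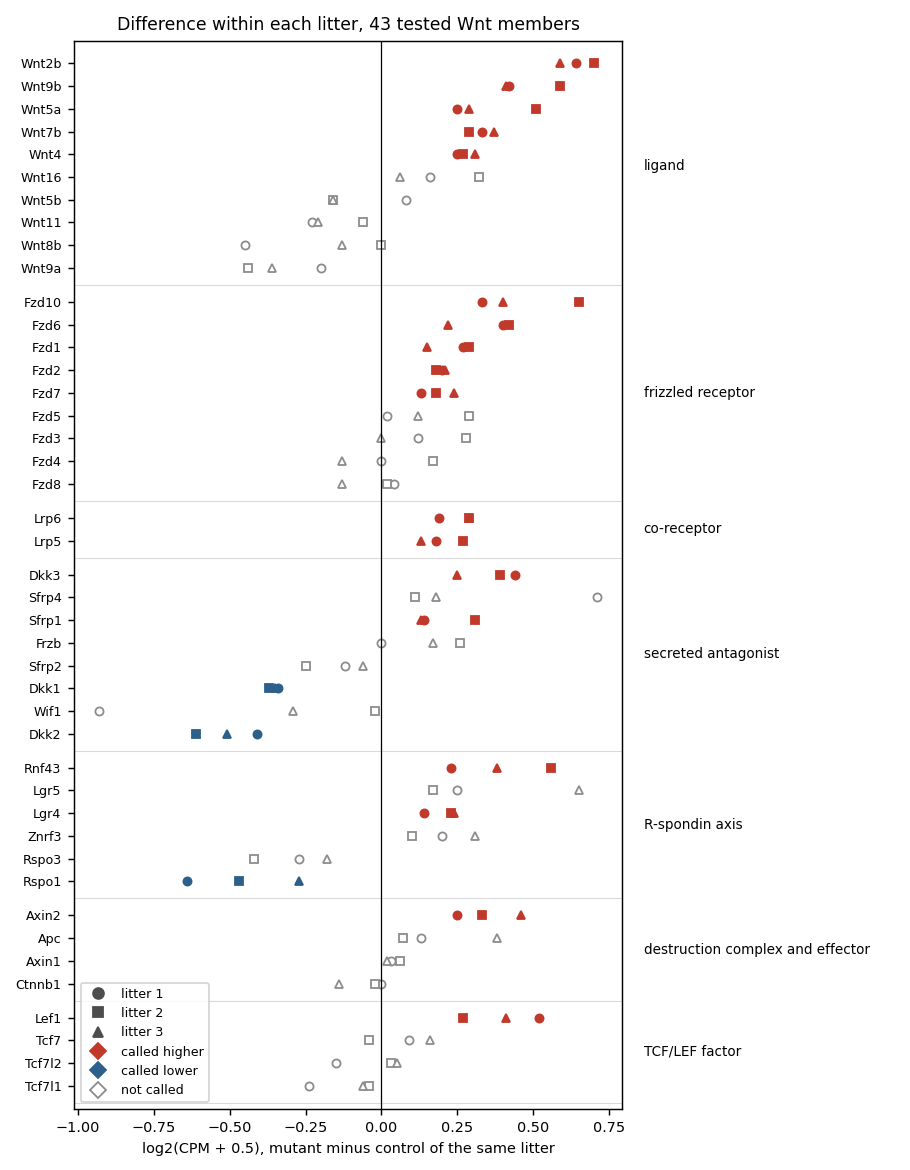
Difference in log2(CPM + 0.5), mutant minus control, within each of the 3 litters (circle, square, triangle) for the 43 tested members, grouped by role. Filled red points are the 18 genes called higher, filled blue points the 3 called lower and open points the 22 not called; every red or blue gene has its 3 litters on one side of 0.

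With genotype alone, ignoring litter, limma called 0 of the 43 members, against 0.559% of all rows; 18 of the 43 had an unadjusted p below 0.05, against 11.3% of all rows, and the lowest adjusted p was 0.113, for Dkk2. In the paired fit without litter 1, 2 members remained called, Wnt5a and Dkk2, against 2.21% of all rows. In the paired fit without limma's mean trend, 2 members remained called, Wnt2b and Dkk2, against 1.48% of all rows. Removing the trend of fold change with transcript length and GC content left 14 members called, against 7.3% of all rows. Longer transcripts had higher fold changes in these libraries, with a Spearman coefficient of 0.413 across all rows, described without a test; the members' median transcript length was 3715 bases and that of all rows 3464.0 bases. In RNA from whole kidneys, fewer cells of a type and less RNA per cell cannot be told apart, and this holds for every gene described.

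**Figure D2:**
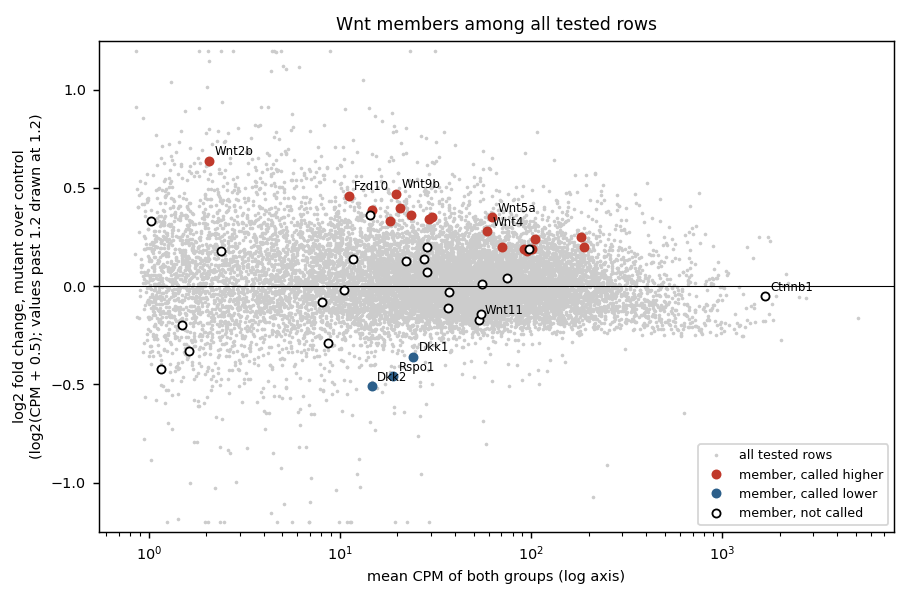
Log2 fold change, mutant over control, against the mean CPM of both groups on a log axis. Grey points are all 13766 tested rows, red and blue points the members called higher and lower with litter as a block, and open circles the members not called; values past 1.2 are drawn at 1.2, and Ctnnb1, the member with the highest CPM, lies near 0.

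Levels of cell type markers, with the Wnt member genes left out of each list, also differed between the groups. The summed level of 8 nephron progenitor genes was 356 to 363 CPM in mutant kidneys and 432 to 441 CPM in control kidneys, and 4 of the 8 were called lower. Cited1 had the largest difference of these, averaging 10.9 CPM in mutant kidneys and 47.5 CPM in control kidneys. Osr1, Gdnf, Itga8 and Crym were not called, at log2 fold changes of 0.08, 0.00, 0.01 and −0.11. Sums of 10 stromal genes were 1774.0 to 1981.5 CPM in mutant kidneys and 1395.2 to 1584.1 CPM in control kidneys, with 4 called higher. These 4 were Foxd1 (0.31), Pdgfra (0.51), Fat4 (0.78) and Ntn1 (0.68). Col1a1, the most abundant stromal gene, averaged 888 CPM in mutant kidneys and 741 CPM in control kidneys and was not called. Its log2 difference was 0.53 in litter 1, 0.18 in litter 2 and 0.09 in litter 3. Dcn, Lum and Tbx18 also differed most in litter 1 and were not called. Pdgfrb (0.08) and Meis1 (0.12) were not called. Sums of 4 ureteric tip genes were 293 to 344 CPM in mutant kidneys and 277 to 286 CPM in control kidneys, with 2 called higher, and those of 6 ureteric trunk and collecting duct genes were 773 to 815 CPM in mutant kidneys against 709 to 733 CPM in control kidneys, with 1 called higher. Genes of a list did not all move with its sum. In the tip list Etv5 had a log2 fold change of −0.03, while Ret, Gfra1 and Sox9 averaged higher. In the trunk list Hoxb7 (−0.12) and Aqp2 (−0.20) averaged lower without a call, while Calb1, Gata3, Krt8 and Krt18 averaged higher. Calb1, the most abundant of these, averaged 310 CPM in mutant kidneys and 270 CPM in control kidneys.

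Early nephron genes, 5 in number, summed to 568 to 632 CPM in mutant kidneys and 532 to 567 CPM in control kidneys, with 2 called higher and 1 lower. Jag1 and Ccnd1 were called higher, at log2 fold changes of 0.27 and 0.16, and Fgf8 was called lower, at −0.58. Pax8 (0.18) and Lhx1 (−0.10) were not called. Ccnd1, the most abundant of the 5, averaged 273 CPM in mutant kidneys and 244 CPM in control kidneys. It is also among the further pathway genes described below. Endothelial genes, also 5, summed to 737 to 776 CPM in mutant kidneys and 636 to 692 CPM in control kidneys, with 3 called higher. In each of these 6 lists the summed levels of the groups did not overlap, though for early nephron genes 568 CPM stood beside 567 CPM. Of all tested rows, 7.93% were called higher and 3.51% lower. All mutant libraries lay above all control libraries for 10.2% of all rows and below them for 7.12%. Of 5 adrenal genes Star alone had a row, at 3.25 to 4.05 CPM in mutant kidneys and 3.27 to 4.2 CPM in control kidneys. The 4 gonad and 4 skeletal muscle genes had no row in the expression table. The part of these differences in the Wnt results was not tested.

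Among the ligands, 5 of the 10 tested were called, all higher in mutant kidneys. Wnt9b (ENSMUSG00000018486), the ureteric signal that acts on nephron progenitors, had 20.2, 24.3 and 24.2 CPM in mutant kidneys of litters 1 to 3 and 15, 16 and 18.1 CPM in control kidneys. Every mutant library was above every control library. Its log2 fold change was 0.47 (SE 0.0767), with an adjusted p of 0.00967 by limma with litter as a block and 0.137 with genotype alone.

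Wnt2b, whose product can act through β-catenin and which is known from kidney stroma, showed the largest fold change of the 43 members from a low level. It stood at 2.19, 2.64 and 3.02 CPM in mutant kidneys, against 1.23, 1.43 and 1.84 CPM in control kidneys, which is 106, 145 and 141 reads against 54, 63 and 91. The groups did not overlap, and the log2 fold change was 0.64 (SE 0.138; limma adjusted p = 0.0246 with the block, 0.185 with genotype alone). Wnt5a, a ligand best known for acting on cell polarity and movement without β-catenin, had 66, 67 and 76.7 CPM in mutant kidneys and 55.4, 47 and 62.7 CPM in control kidneys. These groups did not overlap either, at a log2 fold change of 0.35 (SE 0.0631; adjusted p = 0.0136 with the block, 0.283 with genotype alone), but the call was lost once the length and GC trend was removed (adjusted p = 0.0821, limma).

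Wnt4 and Wnt7b were higher within each litter while their groups overlapped. Wnt4 (ENSMUSG00000036856), needed for the mesenchymal to epithelial change of the forming nephron, had 55.4, 68.3 and 69.1 CPM in mutant kidneys and 46.3, 56.6 and 55.7 CPM in control kidneys. The overlap came from litter 1, whose mutant library was the lowest of the mutants and lay below the control libraries of the other litters. Its log2 fold change was 0.28 (SE 0.051; limma adjusted p = 0.0143 with the block, 0.413 with genotype alone). Wnt7b, a ligand of the collecting duct that is needed for the renal medulla, had 17.3, 21.7 and 22 CPM in mutant kidneys and 13.7, 17.6 and 17 CPM in control kidneys, a log2 fold change of 0.33 (SE 0.0735; adjusted p = 0.0277 with the block, 0.402 with genotype alone). Litter 1 again gave the lowest library of each group.

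Wnt11, the ligand of the ureteric tip that takes part in branching, was not called. It had 47.4, 53.1 and 50.1 CPM in mutant kidneys and 55.6, 55.5 and 58.2 CPM in control kidneys. All mutant libraries were below all control libraries, at a log2 fold change of −0.17 (SE 0.0577; limma adjusted p = 0.0966 with the block, 0.523 with genotype alone). Among the other ligands not called, Wnt16 had a log2 fold change of 0.18, Wnt5b of −0.08, Wnt8b of −0.20 and Wnt9a of −0.33, and except for Wnt5b each of these averaged below 3 CPM in both groups.

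Per kilobase of transcript, Wnt11 and Wnt4 were the most abundant ligands, at 14.5 ± 0.823 and 15.3 ± 1.84 CPM per kb in mutant kidneys and 16.3 ± 0.44 and 12.6 ± 1.36 CPM per kb in control kidneys (SD, n = 3 each). The libraries of these neighbours overlapped in mutant kidneys and did not overlap in control kidneys. Wnt5a followed at 9.97 ± 0.842 CPM per kb in mutant kidneys and 7.85 ± 1.12 in control kidneys. Wnt7b and Wnt9b were lower again, at 5.98 ± 0.779 and 5.07 ± 0.512 CPM per kb in mutant kidneys and 4.73 ± 0.618 and 3.62 ± 0.348 in control kidneys; in mutant kidneys these neighbours overlapped. Wnt2b, Wnt8b, Wnt9a, Wnt16 and Wnt6 were all below 1 CPM per kb in both groups.

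**Figure D3:**
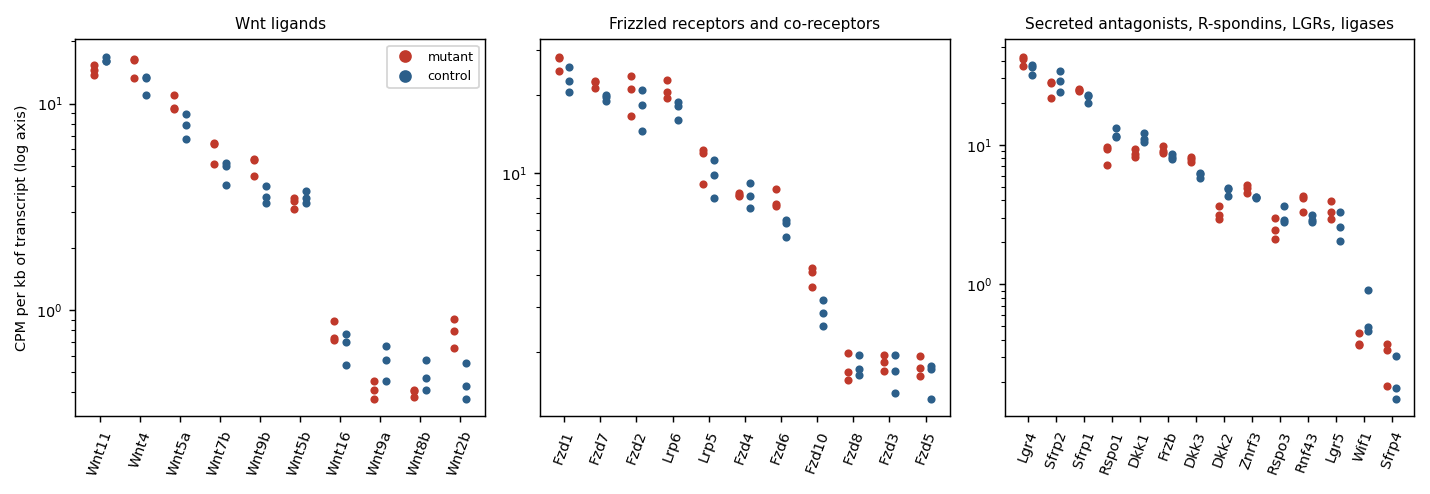
Level in each library, as CPM per kb of transcript on a log axis, for the tested ligands (left), the frizzled receptors and co-receptors (middle), and the secreted antagonists and R-spondin axis (right), with mutant libraries (red) left of control libraries (blue). Wnt11 and Wnt4 lead the ligands, Fzd1, Fzd7, Fzd2 and Lrp6 the receptors, and Lgr4 the last panel.

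Of the 9 tested frizzled genes 5 were called, all higher: Fzd1, Fzd2, Fzd6, Fzd7 and Fzd10. Fzd6, whose product is known from planar cell polarity, had 37.6, 32.8 and 32.2 CPM in mutant kidneys and 28.4, 24.4 and 27.6 CPM in control kidneys. Every mutant library was above every control library, at a log2 fold change of 0.35 (SE 0.0687; limma adjusted p = 0.0188 with the block, 0.238 with genotype alone). Fzd10 stood at 11.7, 13.3 and 13.8 CPM in mutant kidneys, against 9.27, 8.27 and 10.4 CPM in control kidneys, again with no overlap (log2 fold change 0.46, SE 0.0981; adjusted p = 0.0246 with the block, 0.186 with genotype alone). Its row joins Fzd10 with an identifier that has no symbol in the annotation used, so the reads of the pair cannot be separated.

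Fzd1, the most abundant frizzled gene per kilobase, had 105, 117 and 119 CPM in mutant kidneys and 87, 96 and 108 CPM in control kidneys, a log2 fold change of 0.24 (SE 0.0487; limma adjusted p = 0.0213 with the block, 0.405 with genotype alone). Its groups overlapped, because the litter 3 control library exceeded the litter 1 mutant library. Fzd7 did not overlap, at 97.2, 103 and 102 CPM in mutant kidneys and 89, 90.6 and 86.5 CPM in control kidneys (log2 fold change 0.18, SE 0.0475; adjusted p = 0.0433 with the block, 0.418 with genotype alone). Fzd2 overlapped, with 61.1, 87 and 77.3 CPM in mutant kidneys and 53.1, 76.7 and 66.9 CPM in control kidneys, and was higher by a similar amount in each litter (log2 fold change 0.20, SE 0.0482; adjusted p = 0.0375 with the block, 0.692 with genotype alone). The calls of Fzd2 and Fzd7 were lost when the length and GC trend was removed (limma adjusted p = 0.0791 and 0.153). Fzd3, Fzd4, Fzd5 and Fzd8 were not called, with log2 fold changes of 0.13, 0.01, 0.14 and −0.02.

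Both co-receptors were called higher. Lrp6, which carries the phosphorylated motifs that recruit AXIN, had 194, 183 and 215 CPM in mutant kidneys and 171, 150 and 176 CPM in control kidneys. The groups did not overlap, and the log2 fold change was 0.25 (SE 0.0429; limma adjusted p = 0.0112 with the block, 0.322 with genotype alone). Lrp5, the other co-receptor, had 80.6, 106 and 109 CPM in mutant kidneys and 70.9, 87.5 and 99.5 CPM in control kidneys, with overlap (log2 fold change 0.19, SE 0.0496; adjusted p = 0.0417 with the block, 0.669 with genotype alone and 0.272 after removal of the length and GC trend). Per kilobase Lrp6 averaged 21.1 CPM in mutant kidneys and 17.7 in control kidneys, and Lrp5 averaged 11.1 CPM in mutant kidneys and 9.67 in control kidneys.

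Of 8 tested secreted antagonists, 2 were called lower and 2 higher. Dkk1 (ENSMUSG00000024868), a blocker of LRP5 and LRP6, had 19.9, 22.6 and 20.8 CPM in mutant kidneys and 25.3, 29.4 and 26.8 CPM in control kidneys. All mutant libraries were below all control libraries, at a log2 fold change of −0.36 (SE 0.0665; limma adjusted p = 0.0152 with the block, 0.22 with genotype alone). Dkk2 (ENSMUSG00000028031), which also binds LRP6, had 13.5, 11.7 and 10.9 CPM in mutant kidneys and 18.1, 18 and 15.8 CPM in control kidneys. This was the largest decrease among the members, at a log2 fold change of −0.51 (SE 0.0831; adjusted p = 0.00985 with the block, 0.113 with genotype alone), and it remained called without litter 1 (limma adjusted p = 0.044).

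Dkk3, a relative of the other DKK genes that is not known as an LRP6 blocker, went the other way, with 26.5, 27.6 and 25.3 CPM in mutant kidneys and 19.4, 20.9 and 21.2 CPM in control kidneys. Its groups did not overlap, and its log2 fold change was 0.36 (SE 0.0724; limma adjusted p = 0.0194 with the block, 0.178 with genotype alone). Sfrp1, which binds Wnt ligands through a frizzled-like domain, had 110, 108 and 106 CPM in mutant kidneys and 99.2, 87.5 and 97.3 CPM in control kidneys (log2 fold change 0.19, SE 0.0521; adjusted p = 0.0492 with the block, 0.42 with genotype alone). That value was just under the threshold, and the call was lost with a pseudocount of 0.1 CPM, with no filter, with either other scaling, and after removal of the length and GC trend. Sfrp2, Sfrp4, Frzb and Wif1 were not called, with log2 fold changes of −0.14, 0.33, 0.14 and −0.42. Wif1, a secreted protein that binds Wnt ligands, was near the filter, at 0.849, 1.02 and 0.836 CPM in mutant kidneys and 2.08, 1.05 and 1.13 CPM in control kidneys, and most of its difference lay in litter 1.

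**Figure D4:**
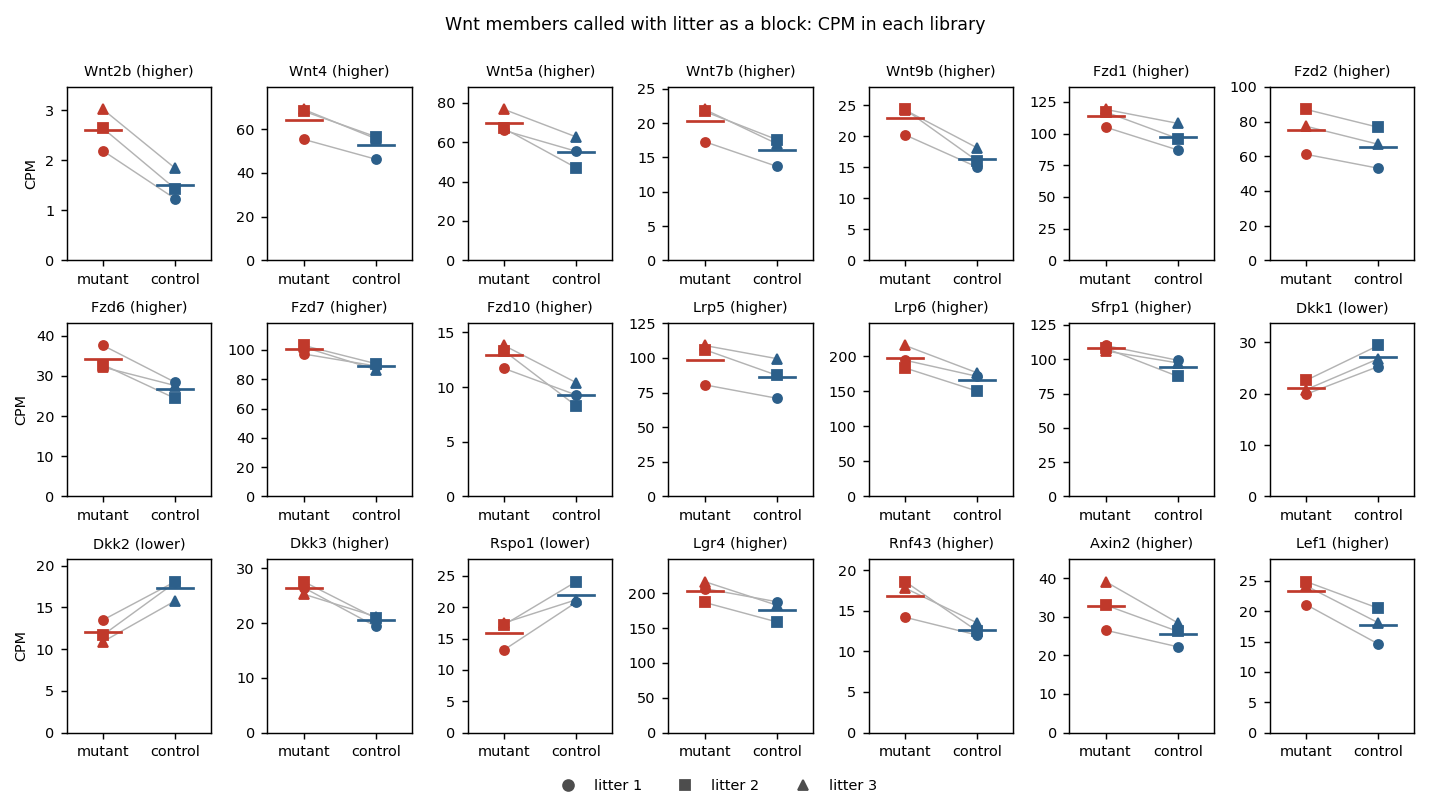
CPM in each library for the 21 members called with litter as a block, mutant left and control right in each panel, with lines joining the samples of a litter and bars at the group means. Each axis starts at 0; in all panels the 3 lines slope the same way, and Dkk1, Dkk2 and Rspo1 are the panels in which mutant kidneys are lower.

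In the R-spondin axis, 6 genes were tested, of which Rspo1 was called lower and Lgr4 and Rnf43 higher. Rspo1 (ENSMUSG00000028871), an agonist of Wnt signalling known from nephron progenitors, had 13.2, 17.2 and 17.5 CPM in mutant kidneys and 20.8, 24.1 and 21.2 CPM in control kidneys. No mutant library reached a control library, and the log2 fold change was −0.46 (SE 0.0894; limma adjusted p = 0.0172 with the block, 0.195 with genotype alone). Rspo3, the other R-spondin of nephron progenitors, had 9.17, 6.52 and 7.58 CPM in mutant kidneys and 11.2, 8.91 and 8.67 CPM in control kidneys. It was lower in all 3 litters with overlapping groups and was not called (log2 fold change −0.29, SE 0.0981; adjusted p = 0.0906 with the block, 0.522 with genotype alone).

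Lgr4, an R-spondin receptor, was the most abundant gene of this group per kilobase and was called higher, with 207, 187 and 217 CPM in mutant kidneys and 188, 159 and 183 CPM in control kidneys (log2 fold change 0.20, SE 0.0426; limma adjusted p = 0.0223 with the block, 0.45 with genotype alone and 0.0808 after removal of the length and GC trend). Rnf43, a ligase that removes frizzled receptors from the surface and is itself a Wnt target in other tissues, had 14.2, 18.6 and 17.8 CPM in mutant kidneys and 12, 12.5 and 13.5 CPM in control kidneys. These groups did not overlap (log2 fold change 0.39, SE 0.0903; adjusted p = 0.0309 with the block, 0.268 with genotype alone, and 0.0554 after removal of the length and GC trend). Its partner Znrf3 had no overlap either but was not called, at 30.7 ± 2.04 CPM in mutant kidneys and 26.5 ± 0.241 CPM in control kidneys (SD, n = 3 each; log2 fold change 0.20, adjusted p = 0.0952, limma). Lgr5, a receptor and target gene, was also not called, with 19, 14 and 15.7 CPM in mutant kidneys and 15.8, 12.3 and 9.84 CPM in control kidneys (log2 fold change 0.36; adjusted p = 0.0666).

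Inside the cell, the general target Axin2 and the factor Lef1 were called higher, while Ctnnb1, Apc and Axin1 were not called. Axin2 (ENSMUSG00000000142), a scaffold of the destruction complex that many cells raise in response to β-catenin, had 26.5, 33 and 39.1 CPM in mutant kidneys and 22.2, 26.2 and 28.4 CPM in control kidneys. The mutant library was above its own litter's control in all 3 litters, while the groups overlapped. Its log2 fold change was 0.34 (SE 0.0693; limma adjusted p = 0.0199 with the block, 0.42 with genotype alone). Lef1 (ENSMUSG00000027985), a DNA-binding partner of β-catenin and a gene of the early nephron, had 21.1, 24.9 and 24.2 CPM in mutant kidneys and 14.6, 20.5 and 18.1 CPM in control kidneys. Its groups did not overlap, and its log2 fold change was 0.40 (SE 0.078; adjusted p = 0.0175 with the block, 0.286 with genotype alone).

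Ctnnb1, which encodes β-catenin, had 1702.4, 1626.2 and 1603.3 CPM in mutant kidneys and 1699.4, 1649.8 and 1763.1 CPM in control kidneys. The groups overlapped, and the means were 1644.0 ± 51.9 CPM in mutant kidneys and 1704.1 ± 56.8 CPM in control kidneys (SD, n = 3 each). Its log2 fold change was −0.05 (SE 0.0392; limma adjusted p = 0.417 with the block, 0.79 with genotype alone). Its RNA level says nothing of the protein, which is set mainly by degradation. Apc and Axin1, scaffolds of the destruction complex, had log2 fold changes of 0.19 (adjusted p = 0.0903) and 0.04 (adjusted p = 0.665). The other 3 TCF/LEF factors were not called, at 0.07 for Tcf7, −0.11 for Tcf7l1 and −0.03 for Tcf7l2.

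The letters CTTTGAT, a core of the TCF/LEF binding motif, were searched on both strands, the reverse being ATCAAAG, in a promoter window of 300 bases around each RefSeq start site of GRCm38.p6. They were present in 2 of 38 promoters of 28 members, a share of 5.26%, against 1225 of 32851 promoters (3.73%). The 2 were a promoter of Wnt5b and a promoter of Wnt11. Neither Wnt5b nor Wnt11 was called. Members other than these 28 had no promoter in the set and were not searched. Among them were the called genes Wnt5a, Wnt7b, Fzd2, Fzd6, Lrp5, Lrp6, Sfrp1 and Dkk3.

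Of 68 further pathway genes listed by function, 63 were tested and 18 were called with litter as a block (28.6%, against 11.4% of all rows). Of these, 16 were higher (25.4%, against 7.93%) and 2 lower (3.17%, against 3.51%), and the median log2 fold change over the 63 was 0.10, beside 0.01 over all rows. With genotype alone limma called 0 of them, and 16 had an unadjusted p below 0.05, against 11.3% of all rows; without litter 1, 8 remained called, and without the mean trend 4 were called. Among secreted and membrane inhibitors, Apcdd1 had 59.4, 66.3 and 67.8 CPM in mutant kidneys and 38.4, 46 and 47.7 CPM in control kidneys (log2 fold change 0.55, SE 0.0547; adjusted p = 0.00168 with the block, 0.0628 with genotype alone). Notum, which removes the lipid from Wnt proteins and is a Wnt target in other tissues, had 5.18, 7.68 and 5.57 CPM in mutant kidneys and 2.83, 4.84 and 3.42 CPM in control kidneys (log2 fold change 0.67, SE 0.112; adjusted p = 0.0106 with the block, 0.222 with genotype alone). In both genes every mutant library was above every control library.

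Sost, another LRP inhibitor, was lower, with 1.57, 0.783 and 1.07 CPM in mutant kidneys and 2.58, 2.09 and 2.22 CPM in control kidneys (log2 fold change −0.79, SE 0.157; limma adjusted p = 0.0187 with the block, 0.135 with genotype alone). The membrane genes Tnfrsf19 and Gpc6 were higher, at 0.41 and 0.34 on the log2 scale (adjusted p = 0.0278 and 0.00967). The receptors Ror1 and Ror2, which bind Wnt5a, were higher, with log2 fold changes of 0.43 (adjusted p = 0.00991) and 0.34 (adjusted p = 0.0338). Planar polarity genes called higher were Celsr1 at 0.36, Prickle2 at 0.50, Vangl1 at 0.31 and Daam2 at 0.23 on the log2 scale. Cytoplasmic genes called higher included Dact1 at 0.48, the tankyrase gene Tnks at 0.47, Nkd1 at 0.25 and Gsk3b, the kinase gene of the destruction complex, at 0.19. Of the nuclear partners and targets, Tle3 at 0.30 and Ccnd1 at 0.16 were higher and Myc, at −0.21, was lower (adjusted p = 0.00721, 0.0407 and 0.0395, limma). When the length and GC trend was removed, 11 of the 18 further genes remained called. The calls of Ror2, Vangl1, Daam2, Nkd1, Gsk3b, Ccnd1 and Myc were lost. Gsk3b then had a log2 fold change of 0.03 (limma adjusted p = 0.688).

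Of 4 genes known to need Wnt9b in mouse nephron progenitors, 2 were called lower, while 3.51% of all tested rows were called lower. A link of these levels to Wnt9b was not tested. Cited1, also in the progenitor list above, was lower in mutant kidneys, at a log2 fold change of −2.07. Uncx was lower with overlapping groups, at −0.51 (limma adjusted p = 0.00455 with the block, 0.346 with genotype alone). Tafa5 averaged 10.1 ± 0.809 CPM in mutant kidneys and 11.8 ± 1.03 CPM in control kidneys (SD, n = 3 each; adjusted p = 0.141, limma), and Pla2g7 averaged 124 ± 10.4 CPM in mutant kidneys and 115 ± 7.72 CPM in control kidneys (adjusted p = 0.167). Neither was called. Etv4, a gene of the ureteric tip and of progenitors, averaged 74.7 ± 4.45 CPM in mutant kidneys and 105 ± 12 CPM in control kidneys (log2 fold change −0.48; adjusted p = 0.00208 with the block, 0.0749 with genotype alone).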

How the data were processed

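RNA was measured in 6 whole kidney samples, 3 mutant and 3 control, 1 of each per litter. Libraries were made with a TruSeq RNA kit, per the labels' protocols, and the submitters' processing notes name TopHat2 2.0.9, Picard, SAMtools and build NCBIM37; the counting program, the annotation and the use of strand are not given in the sources used here. The authors deposited CPM per gene identifier; every value was a whole number of reads of the library total, within 0.001 reads. Of 13965 rows, 526 join several identifiers, and 13695 had a symbol in GENCODE M21.

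The 13766 rows that reached 1 CPM in 3 or more libraries were fitted on log2(CPM + 0.5) in limma 3.58.1 under R 4.3.3, with a mean trend, genotype and litter. Benjamini-Hochberg adjustment covered all rows, and an adjusted p below 0.05 was a call. Errors are SD between samples or the SE of a log2 fold change. Fold changes of genes at low CPM are understated by the pseudocount. An exact permutation test of 3 against 3 cannot go below 0.1 and was not used for calls. Samples of a litter deviated together, with correlations of deviations of 0.619, 0.446 and 0.312, and the labels name the litters. The fit with genotype alone stands beside the results. The unit was CPM and not counts, so no count model was used. Levels per kb divide CPM by the length of the longest annotated transcript of the gene in GENCODE M21. Alternatives changed the pseudocount, filter, scaling, trend, block, length and GC correction (loess, span 0.3), and left out each litter or library.

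Named genes are all members called, those needed to describe their group, and called genes of the further pathway list. The lists and tests, like the members, were chosen with earlier results of these data known. Sequences and promoters are from RefSeq (GRCm38.p6) and 3′ UTRs from GENCODE M21; the search used the longest annotated 3′ UTR of each gene. A further marker list of neighbouring tissue is not reported here.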

Additional observations from a re-analysis of the deposited data

How the results depend on the processing

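The directions of the 21 called members were kept under every alternative run, but most of their calls were lost without pairing, without the mean trend or without litter 1. Calls over all rows also fell without litter 1, from 1574 to 304. With no replicate block, 0 members were called (0 higher, 0 lower), 77 rows in all and 0 further pathway genes. Without the mean trend in limma, 2 members (1 higher, Wnt2b, and 1 lower, Dkk2), 204 rows and 4 further genes were called. With the length and GC trend removed in the paired fit, 14 members (11 higher, 3 lower), 1005 rows and 11 further genes were called. When 1 litter was left out of the paired fit or 1 library out of the unpaired fit, between 0 and 20 members were called (0 to 17 higher, 0 to 3 lower), 22 to 2284 rows, and 0 to 24 further genes. The paired fit called 2 members without litter 1, 16 without litter 2 and 20 without litter 3. Median-ratio and trimmed-mean scaling called 18 each, losing Fzd7, Lrp5 and Sfrp1; a pseudocount of 0.1 CPM and no filter called 20 each, and a pseudocount of 1 CPM called 21. The median log2 fold change of all rows was 0.012 in the paired fit, −0.002 with trimmed-mean and −0.004 with median-ratio scaling. Sign changes were limited to 7 genes that were not called. With length and GC removed, Fzd4 was at −0.131, Fzd5 at −0.020 and Axin1 at −0.006; Fzd4 was at −0.004 with median-ratio and −0.002 with trimmed-mean scaling. With 1 litter or library left out, the ranges were −0.071 to 0.096 for Fzd4, −0.118 to 0.049 for Fzd8, −0.021 to 0.097 for Axin1, −0.009 to 0.142 for Tcf7, −0.271 to 0.114 for Tcf7l1 and −0.096 to 0.041 for Tcf7l2. The planned count tests were not run, since the deposited unit is CPM. The cause of these changes was not tested. At 1 CPM a library held 43.8 to 54.9 reads, so Wnt6, Sfrp4 and Wif1 rest on few reads.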
